A study of Mus musculus with 6 samples.

Results

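The genes described here encode the ATG8 family proteins and the selective autophagy receptors, 10 genes in all among the 18563 genes that had a named probe on the array. They were matched by symbol, the ATG8 family as Map1lc3a, Map1lc3b, Gabarap, Gabarapl1 and Gabarapl2 and the receptors as Sqstm1, Nbr1, Optn, Tax1bp1 and Bnip3. Each was read by 1 probe annotated to it alone, and a further probe annotated to both Fmnl1 and Gabarapl1 was left unnamed. Testing required a probe brighter than background in 3 or more of the 6 arrays, and 9 of the 10 genes were among the 14731 tested. The exception was Optn.

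RNA samples of muscle from female mice 6 weeks old, 3 of them Rpt3-/- and 3 Rpt3+/+, had been hybridized to CodeLink mouse whole-genome bioarrays, single-color arrays with 1 array for each sample. Rpt3, also known as Psmc4, encodes an ATPase subunit of the proteasome. In Rpt3-/- mice (labeled Rpt3 null) both floxed Rpt3 alleles were exposed to Cre recombinase driven by the promoter of myosin light chain 1 fast. The controls (labeled control) are Mlc1f-Cre/Rpt3+/+ according to the study, although the labels list the strain mlc1f-Cre/ Rpt3-floxed for both groups. Cre was thus shared by both groups. The promoter is known for its activity in fast-twitch fibers, and which cells of the tissue kept Rpt3 was not measured here. The labels name the tibialis anterior as the tissue, and the study names the gastrocnemius for its arrays. Psmc4 itself was lower in Rpt3-/- mice, with a log2 difference of -1.17 (SE 0.13, adjusted p = 0.000308 from limma) for the brighter of its 2 probes. The dimmer probe, above background on 2 arrays of each group, differed by -0.23 with overlapping groups, and the mean of both probes by -0.70 (adjusted p = 0.00519 from limma). Markers of skeletal muscle were bright, and of the 15 tested 1 was higher (Myh1) and 3 were lower (Myoz1, Myl1 and Casq1). The share of probes above background was between 69.2% and 72.7% on the Rpt3-/- arrays and between 57.0% and 74.5% on the Rpt3+/+ arrays, with Rpt3+/+ replicate 2 the dimmest.

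Macroautophagy encloses cytoplasm in a double membrane, the autophagosome, which then fuses with the lysosome. ATG8 proteins resemble ubiquitin in their fold and are attached to a lipid, phosphatidylethanolamine, on the growing membrane, where they recruit other proteins. Selective autophagy receptors hold cargo with one end, often through ubiquitin, and an ATG8 protein with the other through a short LC3-interacting region, so that many receptors are themselves degraded with their cargo. In skeletal muscle, autophagy and the proteasome are the main routes by which proteins are broken down. The arrays measure mRNA and carry no information on lipidation of LC3 or on the passage of cargo to the lysosome.

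The stretches of DNA before the transcription start are shown for Gabarap and Sqstm1, an ATG8 gene and a receptor gene that were both higher in Rpt3-/- mice, and for Bnip3, the tested member whose difference was nearest to 0. Each is the 250 bases upstream of the start given by RefSeq in build GRCm38.p6, written 5′ to 3′ on the strand of the gene, at chr11:69991120-69991369 (plus strand) for Gabarap, chr11:50210821-50211070 (minus strand) for Sqstm1 and chr7:138909507-138909756 (minus strand) for Bnip3. Capitals mark matches to the motifs described after the sequences.
Gabarap: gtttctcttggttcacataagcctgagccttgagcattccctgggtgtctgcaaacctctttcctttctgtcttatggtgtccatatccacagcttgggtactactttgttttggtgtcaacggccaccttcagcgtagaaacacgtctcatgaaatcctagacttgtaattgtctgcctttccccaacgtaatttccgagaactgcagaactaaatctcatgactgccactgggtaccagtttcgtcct
Sqstm1: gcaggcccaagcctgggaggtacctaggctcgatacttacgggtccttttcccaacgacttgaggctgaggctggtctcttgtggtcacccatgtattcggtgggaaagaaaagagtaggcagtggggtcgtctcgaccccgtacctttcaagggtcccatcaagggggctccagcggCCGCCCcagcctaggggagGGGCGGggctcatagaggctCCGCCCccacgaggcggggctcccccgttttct
Bnip3: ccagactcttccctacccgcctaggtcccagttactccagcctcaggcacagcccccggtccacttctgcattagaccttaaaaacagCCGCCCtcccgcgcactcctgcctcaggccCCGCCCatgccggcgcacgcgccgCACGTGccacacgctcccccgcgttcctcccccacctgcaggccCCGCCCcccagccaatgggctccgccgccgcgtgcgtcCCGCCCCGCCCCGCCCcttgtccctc
The letters searched, on both strands, were the GC box GGGCGG, the core of the antioxidant response element TGACNNNGC, the E-box CACGTG found in many lysosomal gene promoters, and the FoxO site TGTTTAC. No motif contains another. The promoter table held 9 of the 10 members, Map1lc3a being the other. Gabarap had no match to any of the 4 motifs. Sqstm1 had 3 GC boxes, and Bnip3 had 6 GC boxes, some of them sharing bases, and an E-box 108 bases before the start. Of the 9 members 6 held a GC box, which was found before 35.4% of the 27025 genes in the table. Tax1bp1 was the only member with the antioxidant response core, found before 11.5% of genes. Bnip3 was the only one with the E-box, found before 6.86%, and no member held the FoxO site, found before 3.54%. A match is a run of letters and not a measured binding site.

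Within these genes 3 of the 9 tested were higher in Rpt3-/- muscle and none was lower, as called at an adjusted p under 0.05 by limma, which fits a linear model to every tested gene. The 3 were Gabarap, Map1lc3a and Sqstm1. Over all 14731 tested genes 12.7% were higher and 6.56% were lower by the same rule. Before adjustment, limma gave 5 of the 9 higher and 0 lower at p under 0.05, beside 19.2% and 12.9% of all tested genes. By the unpaired parametric test named in the study's methods, 3 were higher and 0 lower without adjustment, beside 17.0% and 11.1% of all tested genes, and 1 was higher and 0 lower with Benjamini-Hochberg adjustment, beside 6.38% and 2.90%. The 3 Rpt3-/- arrays lay wholly above the 3 Rpt3+/+ arrays for 6 of the 9 genes and wholly below them for none, beside 21.2% and 15.6% of all tested genes. Gabarapl1, counted among the 6 and the 5, was above background on all 3 Rpt3-/- arrays but only 1 Rpt3+/+ array. It thus met the filter through the group where it was higher, and its groups met at the second decimal. The median log2 difference of the 9 genes was 0.42, the value of Gabarapl1 itself, and that of all tested genes was -0.01. The labels number the samples of a group without naming animals. The p-values therefore measure the spread between these samples, which may be partly technical if any share an animal. Values and SDs given below for the mice of a group are those of its 3 arrays.

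**Figure D1:**
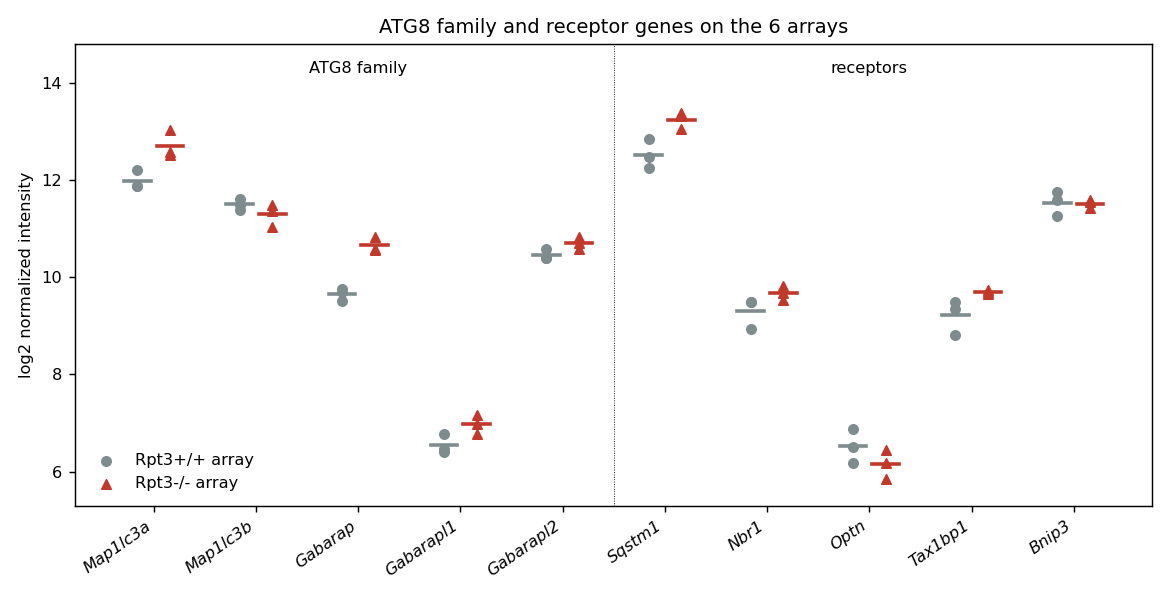
Log2 normalized intensity (vertical axis) of the 5 ATG8 family genes and the 5 receptor genes on each of the 3 Rpt3+/+ arrays (gray circles) and 3 Rpt3-/- arrays (red triangles), with horizontal lines at the group means. The groups stand apart for Gabarap, Map1lc3a, Sqstm1, Nbr1 and Tax1bp1, touch for Gabarapl1, and overlap for Map1lc3b, Gabarapl2, Bnip3 and Optn. Heights of different genes cannot be compared, since each gene was read by its own probe.

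Gabarap encodes the founding member of the GABARAP branch of the ATG8 family, first described as a protein that binds the GABA-A receptor. Its log2 intensities were 10.82, 10.58 and 10.57 in the Rpt3-/- mice, against 9.76, 9.69 and 9.52 in the Rpt3+/+ mice. The groups were far apart, with the lowest Rpt3-/- array well above the highest Rpt3+/+ array, and the means were 10.66 ± 0.14 and 9.66 ± 0.12 (SD, n = 3 each). The log2 difference was 1.0 (SE 0.13, 95% interval 0.70 to 1.30, adjusted p = 0.000803 from limma), a 2.0-fold higher level with an interval from 1.63- to 2.46-fold. The difference was larger than that of 97.0% of all tested genes. Gabarap passed the threshold under every one of the 18 processing alternatives, with differences between 0.49 and 1.26.

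Map1lc3a encodes LC3A, a protein of the LC3 branch, whose lipidated form is widely used to mark autophagosomes. Its log2 intensities were 13.03, 12.51 and 12.57 in the Rpt3-/- mice, against 12.20, 11.88 and 11.87 in the Rpt3+/+ mice. The groups did not overlap, and replicate 1 was the highest array of each group. The means were 12.70 ± 0.29 and 11.98 ± 0.19 (SD, n = 3 each), and the log2 difference was 0.72 (SE 0.17, 95% interval 0.34 to 1.10, adjusted p = 0.0145 from limma), or 1.65-fold (1.27- to 2.15-fold). Without Rpt3-/- replicate 1 it was 0.55 (adjusted p = 0.0612 from limma), and without Rpt3+/+ replicate 3 it was 0.67 (adjusted p = 0.0751 from limma).

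Map1lc3b, the gene of LC3B and the closest relative of Map1lc3a among these genes, was not called. Its log2 intensities were 11.04, 11.37 and 11.48 in the Rpt3-/- mice, against 11.61, 11.39 and 11.49 in the Rpt3+/+ mice. The groups overlapped, and Rpt3-/- replicate 1, the highest array for Map1lc3a, was the lowest for Map1lc3b. The means were 11.30 ± 0.23 and 11.49 ± 0.11 (SD, n = 3 each), with a log2 difference of -0.20 (SE 0.15, 95% interval -0.52 to 0.13, adjusted p = 0.411 from limma). The interval reaches no higher than 0.13 and so leaves out a rise of the size measured for Gabarap. The sign of this small difference depended on the scaling, being 0.09 when each array was instead centred on its median.

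The other ATG8 genes, Gabarapl1 and Gabarapl2, encode close relatives of GABARAP, the latter known as GATE-16 from its part in transport through the Golgi apparatus. Gabarapl2 had log2 intensities of 10.58, 10.70 and 10.82 in the Rpt3-/- mice, against 10.59, 10.39 and 10.40 in the Rpt3+/+ mice, and the groups overlapped by the lowest Rpt3-/- array. The log2 difference was 0.24 (SE 0.13, 95% interval -0.05 to 0.53, adjusted p = 0.244 from limma). Gabarapl1 was dim, and its probe was above background on all 3 Rpt3-/- arrays but on only 1 of the 3 Rpt3+/+ arrays. It read 6.77, 6.97 and 7.17 in the Rpt3-/- mice, against 6.41, 6.77 and 6.47 in the Rpt3+/+ mice, so that the lowest Rpt3-/- array and the highest Rpt3+/+ array were equal to the second decimal. Its log2 difference was 0.42 (SE 0.15, 95% interval 0.08 to 0.77, adjusted p = 0.0838 from limma). The size depended on how the background was removed, being 0.86 with plain subtraction (adjusted p = 0.0779 from limma) and 0.85 in the authors' value table (adjusted p = 0.078 from limma). Neither gene passed the threshold, and neither interval excludes a modest rise.

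Sqstm1 encodes p62, a receptor that gathers ubiquitylated proteins into bodies and links them to LC3. Its log2 intensities were 13.05, 13.31 and 13.37 in the Rpt3-/- mice, against 12.84, 12.24 and 12.48 in the Rpt3+/+ mice. The groups did not overlap, although Rpt3+/+ replicate 1 came close to the lowest Rpt3-/- array. The means were 13.24 ± 0.17 and 12.52 ± 0.30 (SD, n = 3 each), and the log2 difference was 0.72 (SE 0.17, 95% interval 0.34 to 1.10, adjusted p = 0.0147 from limma), or 1.65-fold. The call did not hold without some of the arrays, the difference being 0.71 without Rpt3-/- replicate 2 (adjusted p = 0.0509 from limma), 0.67 without Rpt3-/- replicate 3 (adjusted p = 0.0667 from limma) and 0.70 without Rpt3+/+ replicate 3 (adjusted p = 0.0687 from limma). In the authors' value table, processed separately from the same arrays, it was 0.90 (adjusted p = 0.0514 from limma).

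Nbr1 and Tax1bp1 encode receptors that bind ubiquitin and act beside p62, NBR1 sharing its domain plan with p62 and TAX1BP1 carrying zinc fingers at its end. Tax1bp1 had log2 intensities of 9.66, 9.74 and 9.69 in the Rpt3-/- mice, against 8.82, 9.48 and 9.34 in the Rpt3+/+ mice. All 3 Rpt3-/- arrays stood above the Rpt3+/+ arrays within a narrow band, and Rpt3+/+ replicate 1 was far below its group. The log2 difference was 0.48 (SE 0.17, 95% interval 0.10 to 0.87, adjusted p = 0.0795 from limma). Nbr1 had log2 intensities of 9.54, 9.68 and 9.82 in the Rpt3-/- mice, against 8.93, 9.48 and 9.49 in the Rpt3+/+ mice, again without overlap and with Rpt3+/+ replicate 1 the lowest. Its log2 difference was 0.38 (SE 0.17, adjusted p = 0.16 from limma). Neither gene passed the threshold. Rpt3+/+ replicate 1, low for both of them, was the highest Rpt3+/+ array for Sqstm1 and Map1lc3a. Without it the difference was 0.29 for Tax1bp1 (adjusted p = 0.149 from limma) and 0.20 for Nbr1 (adjusted p = 0.368 from limma).

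Bnip3 encodes a receptor that sits in the outer membrane of mitochondria and, unlike the ubiquitin-binding receptors, carries its LC3-interacting region on the organelle itself. Its log2 intensities were 11.54, 11.58 and 11.42 in the Rpt3-/- mice, against 11.76, 11.25 and 11.59 in the Rpt3+/+ mice, and the Rpt3-/- arrays lay within the range of the Rpt3+/+ arrays. The log2 difference was -0.02 (SE 0.15, 95% interval -0.36 to 0.32, adjusted p = 0.952 from limma). Optn encodes optineurin, a receptor for ubiquitylated mitochondria and bacteria. Its probe was not above background on any of the 6 arrays, with log2 intensities of 5.84, 6.18 and 6.44 in the Rpt3-/- mice, against 6.17, 6.87 and 6.51 in the Rpt3+/+ mice. No difference could be measured for Optn at this signal.

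**Figure D2:**
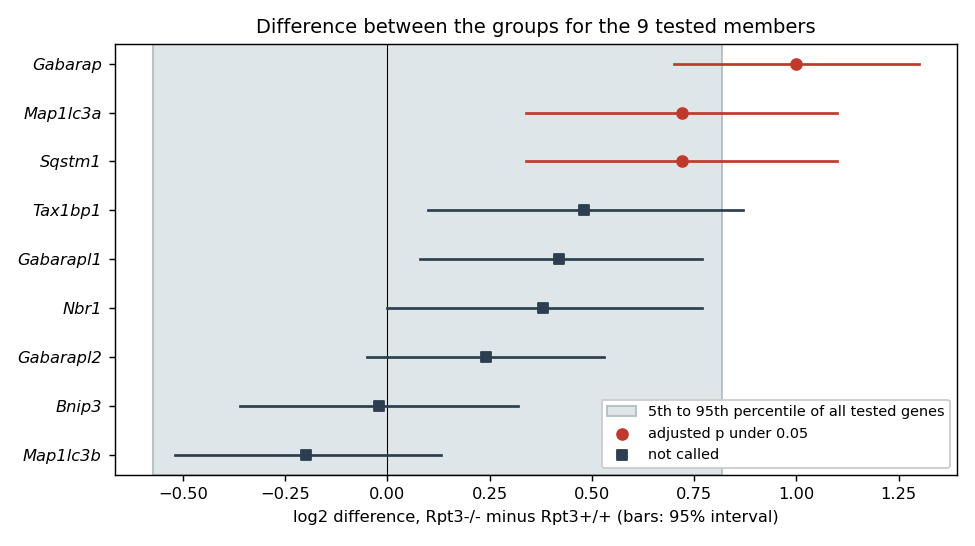
Log2 difference between Rpt3-/- and Rpt3+/+ arrays (horizontal axis) for the 9 tested genes, with 95% intervals from limma as bars. Red circles mark an adjusted p under 0.05, dark squares the genes not called, and the gray band the range from the 5th to the 95th percentile of all tested genes (-0.57 to 0.82). Gabarap is the only one of the 9 whose difference lies beyond the band.

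The scaling of the arrays bears on these differences, because the Rpt3-/- muscle also differed in Actb, the β-actin gene often used as a reference. The log2 difference of Actb was 0.45 (SE 0.12, adjusted p = 0.0294 from limma). In 1 alternative each array was centred on its median and then on Actb, in place of quantile normalization. The median of all tested genes then moved to -0.72. Gabarap was then the only member called higher, at 0.49 (adjusted p = 0.0472 from limma), whereas Map1lc3a was at 0.29, Sqstm1 at 0.23, and Map1lc3b was called lower at -0.67 (adjusted p = 0.0138 from limma). Nbr1, Tax1bp1, Gabarapl1 and Gabarapl2 changed sign on that scale, to -0.20, -0.11, -0.32 and -0.25. Relative to the median of all genes on that scale the differences were 1.20 for Gabarap, 1.01 for Map1lc3a, 0.95 for Sqstm1, 0.61 for Tax1bp1, 0.51 for Nbr1, 0.47 for Gabarapl2, 0.39 for Gabarapl1, 0.23 for Bnip3 and 0.04 for Map1lc3b. Centring on Actb shifts all genes of an array alike, so that these relative values are those of median centring. With median centring alone Gabarap was at 1.26, Map1lc3a at 1.06 and Sqstm1 at 1, and the median of all tested genes at 0.05.

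**Figure D3:**
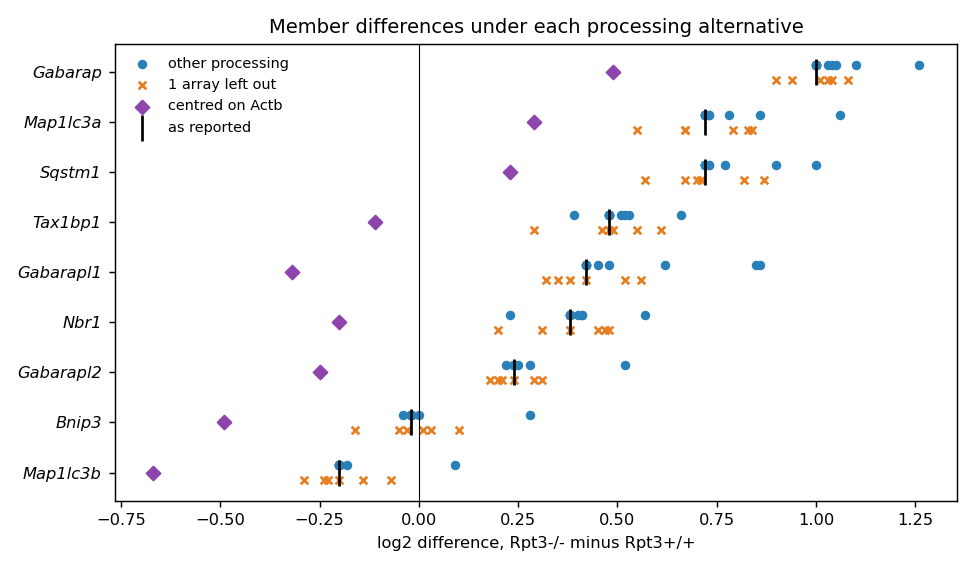
Log2 difference between Rpt3-/- and Rpt3+/+ arrays (horizontal axis) for the 9 tested genes as reported (black bars), with each array left out in turn (orange crosses), with each array centred on Actb (purple diamonds) and with the other processing alternatives (blue circles). Gabarap, Map1lc3a and Sqstm1 stay above 0 throughout, and centring on Actb gives the lowest value for each of the 9 genes.

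A shift of a whole array cancels in the ratio of 2 genes on it. For each pair within the ATG8 family and within the tested receptors, 16 pairs in all, the log2 ratio on each array was set against its Rpt3+/+ mean. An exact two-sided permutation test of 3 arrays against 3 cannot go below p = 0.1, with or without Benjamini-Hochberg adjustment, so that no pair could pass. The smallest adjusted value over the 16 pairs was 0.2. The groups did not overlap for 7 of the 10 ATG8 pairs and for 1 of the 6 receptor pairs, beside 40.1% of all pairs of tested genes. The pairs share genes, so that they are not separate observations. Each of the 7 holds Gabarap, Map1lc3a or Map1lc3b, as does every ATG8 pair except that of Gabarapl1 and Gabarapl2. The ratio of Map1lc3a to Map1lc3b was 1.5, 0.65 and 0.60 in the Rpt3-/- mice, against 0.11, 0.00 and -0.11 in the Rpt3+/+ mice, a difference of 0.92 on the log2 scale (exact permutation p = 0.1, adjusted 0.2). The ratio of Map1lc3b to Gabarap was -1.61, -1.05 and -0.93 against 0.01, -0.14 and 0.13, a difference of -1.20 with the same p. The ratio of the LC3 genes was higher on each Rpt3-/- array than on any Rpt3+/+ array, and highest in replicate 1. Within the GABARAP branch, the ratio of Gabarap to Gabarapl2 differed by 0.76 and that of Gabarap to Gabarapl1 by 0.58. Gabarapl1 was dim, and ratios that hold it depend on how the background was removed. With plain subtraction Gabarap differed by 1.05 and Gabarapl1 by 0.86, so that the 2 genes were closer than by the ratio given here. Among receptors, the ratio of Sqstm1 to Bnip3 was 0.52, 0.74 and 0.96 in the Rpt3-/- mice, against 0.10, 0 and -0.10 in the Rpt3+/+ mice, a difference of 0.74. The ratios among Sqstm1, Nbr1 and Tax1bp1 overlapped between the groups, and their differences ran from -0.10 for Nbr1 over Tax1bp1 to 0.34 for Sqstm1 over Nbr1.

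**Figure D4:**
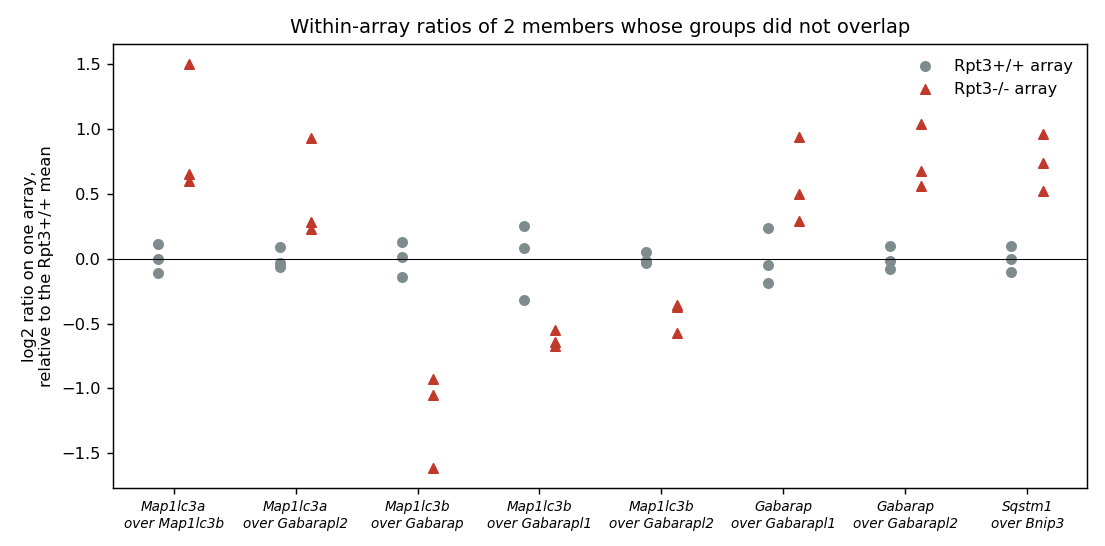
Log2 ratio of 2 genes on the same array, relative to the Rpt3+/+ mean (vertical axis), for the 8 pairs of 16 whose groups did not overlap, on Rpt3+/+ arrays (gray circles) and Rpt3-/- arrays (red triangles). The pairs with Map1lc3b over a GABARAP gene lie below 0 on the Rpt3-/- arrays, and Map1lc3a over Map1lc3b lies above it, at 1.5, 0.65 and 0.60. The size of ratios with Gabarapl1, a dim gene, depends on how the background was removed.

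Across the 6 arrays, as a description over points that share their groups and scaling, Gabarap and Map1lc3a followed each other (Pearson r = 0.947), as did Nbr1 and Tax1bp1 (r = 0.948) and Sqstm1 and Gabarapl2 (r = 0.956). For Map1lc3a and Map1lc3b r was -0.688, with Rpt3-/- replicate 1 the highest array for the former (13.03) and the lowest for the latter (11.04). Rpt3+/+ replicate 1 was the highest Rpt3+/+ array for both genes, and r without Rpt3-/- replicate 1 was not computed. Of all tested genes, those most like Gabarap over the 6 arrays were Atp6v0e, a subunit gene of the proton pump of lysosomes and other acidic compartments, Timm10, which encodes a chaperone of mitochondrial protein import, and Mrpl13, which encodes a protein of the mitochondrial ribosome, each with r = 0.997. Their log2 differences were 0.71, 0.88 and 0.46.

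The wider machinery was described through 72 further autophagy genes in 5 lists, of which 65 had a named probe and 64 were tested. By the same call of limma 10 of these were higher and 6 lower, beside 12.7% and 6.56% of all tested genes, 48 were not called, and the median log2 difference was 0.03. The counts are given list by list with the role of each gene, and their differences depended on the scaling, which left none of the 64 higher and 40 lower when the arrays were centred on Actb.

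The enzymes and effectors that attach ATG8 proteins to the membrane, cleave them or bind the membrane early were represented by 11 tested genes, of which 2 were higher and none lower (0 lower also at an unadjusted p under 0.05 from limma and by the methods' test), with a median of 0.07. Atg7, the E1-like enzyme that activates every ATG8 protein, differed by 0.60 (SE 0.12, adjusted p = 0.0065 from limma). Its log2 intensities were 7.99, 8.09 and 7.94 in the Rpt3-/- mice, against 7.37, 7.45 and 7.41 in the Rpt3+/+ mice, tight groups that stood well apart. Wipi2, which brings the ATG16L1 complex to the membrane, differed by 0.62 (SE 0.17, adjusted p = 0.0263 from limma). Wipi2 was not called without Rpt3-/- replicate 2 (adjusted p = 0.0878), Rpt3-/- replicate 3 (0.114) or Rpt3+/+ replicate 3 (0.0841), nor in the authors' table (0.0592) or with plain subtraction (0.0581), all from limma. On the scale centred on Actb these were -0.13 and -0.05. Atg3, Atg5, Atg10, Atg12 and Atg16l1, the remaining core of the conjugation system, had differences between -0.01 and 0.16 and were not called. Atg4d and Atg16l2 had no named probe here.

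Genes of initiation and membrane supply numbered 16, of which 2 were lower and none higher, with a median of -0.01. Before adjustment 3 passed as higher and 4 as lower by limma, beside 19.2% and 12.9% of all tested genes. By the methods' test 2 passed as higher and 3 as lower, beside 17.0% and 11.1%. These shares also stand beside the unadjusted counts of the other lists. Ulk2, a kinase that starts autophagosome formation, differed by -0.73 (SE 0.17, adjusted p = 0.0151 from limma), and Vmp1, a lipid scramblase of the endoplasmic reticulum, by -0.72 (SE 0.19, adjusted p = 0.0237 from limma). Neither was called without Rpt3-/- replicate 1 (adjusted p = 0.0782 for Ulk2 and 0.116 for Vmp1 from limma) or Rpt3+/+ replicate 3 (0.0829 and 0.104), which left 0 genes of this list lower, and Vmp1 was also not called without Rpt3-/- replicate 3 (0.0788). Without Rpt3+/+ replicate 1 the list held 4 lower genes, and without Rpt3+/+ replicate 2 it held 3 higher genes. Ulk1, the better known relative of Ulk2, was at -0.03 and was not called. Becn1, which encodes beclin-1, was at -0.44 (adjusted p = 0.078 from limma).

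Other receptors and adaptors numbered 19, of which 6 were higher and 2 lower, with a median of 0.03. Tex264, a receptor for the endoplasmic reticulum, had log2 intensities of 9.66, 9.74 and 9.56 in the Rpt3-/- mice, against 8.63, 8.60 and 8.44 in the Rpt3+/+ mice. Its groups were more than a unit apart on average, with a log2 difference of 1.10 (SE 0.13, adjusted p = 0.000343 from limma). Retreg1, another receptor for the endoplasmic reticulum, differed by 0.98 (SE 0.19, adjusted p = 0.00577 from limma), and Stbd1, which tethers glycogen, by 0.81 (SE 0.13, adjusted p = 0.00232 from limma). Plekhm1, an adaptor between autophagosomes and lysosomes, was at 0.79, Nufip1, a receptor for ribosomes, at 0.49 and Calcoco1, a further receptor for the endoplasmic reticulum, at 0.46, and the last of these had adjusted p = 0.0484 from limma. The lower genes were Fyco1, which links autophagosomes to kinesin, at -1.12 (SE 0.20, adjusted p = 0.00352 from limma), and Fundc1, a mitochondrial receptor like Bnip3, at -0.52 (SE 0.13, adjusted p = 0.0208 from limma). Of the 6 fits with 1 array left out, Nufip1 was called in 1, Calcoco1 in 2 and Fundc1 in 2, and over all 18 alternatives Nufip1 kept its call in 6, Calcoco1 in 8 and Fundc1 in 12. The count of higher genes in the list was between 4 and 6 over these 6 fits, and that of lower genes was 1 when any 1 Rpt3-/- array or Rpt3+/+ replicate 3 was left out, and 5 without Rpt3+/+ replicate 1. Tollip, a ubiquitin-binding receptor, was at -0.36 and not called. Bnip3l, Ccpg1, Sec62 and Map1lc3c had no named probe here.

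Of 8 genes for kinases that act on the receptors and for mitophagy, 2 were higher and 1 was lower, with a median of 0.25. Tbk1, the kinase that phosphorylates p62, optineurin and TAX1BP1, differed by 0.92 (SE 0.15, adjusted p = 0.00242 from limma). It read 7.52, 7.76 and 7.99 in the Rpt3-/- mice, against 6.69, 6.91 and 6.93 in the Rpt3+/+ mice, without overlap. Csnk2a2, a catalytic subunit of casein kinase 2, which phosphorylates p62 and other receptors, was at 0.57 (SE 0.12, adjusted p = 0.00833 from limma) and at -0.09 on the scale centred on Actb. Pink1, the mitochondrial kinase that marks damaged mitochondria with phosphorylated ubiquitin, had log2 intensities of 8.56, 8.95 and 9.05 in the Rpt3-/- mice, against 9.61, 10.16 and 10.15 in the Rpt3+/+ mice. It was lower in Rpt3-/- mice by a wide margin, with a log2 difference of -1.12 (SE 0.19, adjusted p = 0.0027 from limma).

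Of 10 tested genes for transcription factors known to act on autophagy genes, 1 was lower and none higher (1 higher at an unadjusted p under 0.05 from limma and 0 by the methods' test), with a median of -0.16. Foxo1 differed by -0.61 (SE 0.14, adjusted p = 0.0115 from limma). It was not called without Rpt3-/- replicate 2 (adjusted p = 0.0522 from limma) or Rpt3+/+ replicate 3 (0.0599), nor by the methods' test with adjustment (0.056). Nfe2l2, which encodes NRF2, an activator of Sqstm1, was at -0.24, Nfe2l1, which encodes the activator of proteasome genes NRF1, at -0.17, Tfeb, a regulator of lysosomal genes, at -0.28, and Foxo3 at 0.09, and none of these was called. Hif1a, which encodes an activator of Bnip3, was at 0.56 (adjusted p = 0.0611 from limma). These are mRNA levels and not the activity of the factors.

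**Figure D5:**
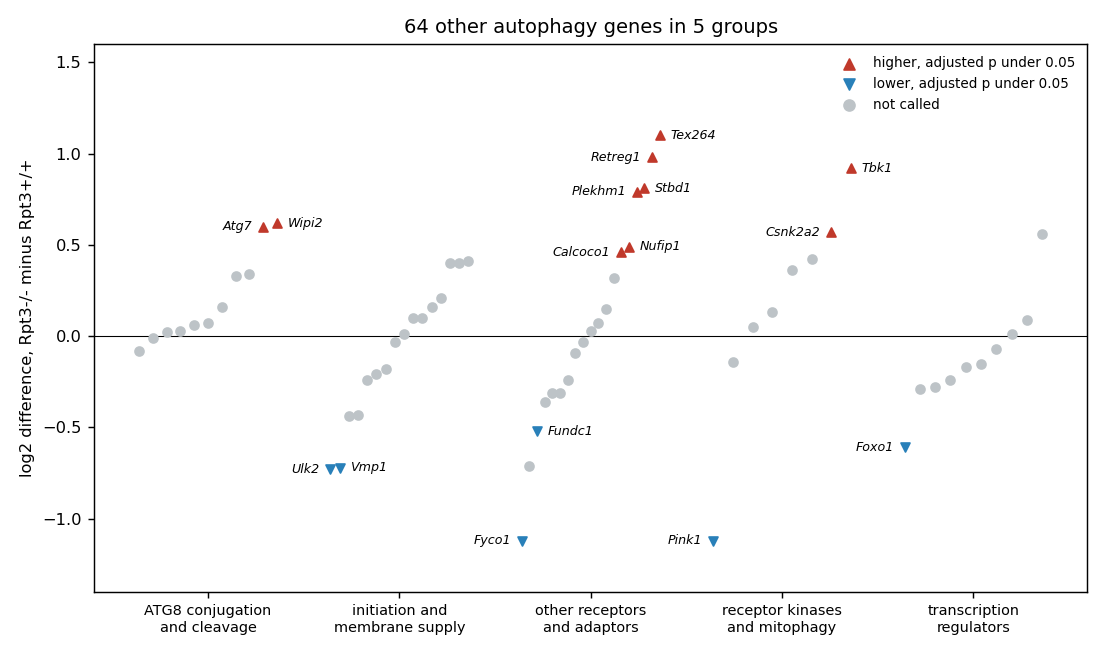
Log2 difference between Rpt3-/- and Rpt3+/+ arrays (vertical axis) for the 64 other tested autophagy genes in 5 lists, each point a gene, in order of size within its list. Red triangles mark genes called higher (10) and blue triangles those called lower (6), by limma with adjustment. Tex264, at 1.10, is the highest, and Fyco1 and Pink1, both at -1.12, are the lowest.

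Many markers of macrophages and fibroblasts and some of adipocytes were also higher in Rpt3-/- mice, and none of those of endothelium, nerve and red cells was called. Of 15 tested macrophage markers 11 were higher in Rpt3-/- mice and none lower, beside 12.7% and 6.56% of all tested genes. The same shares stand beside the fibroblast and adipocyte counts that follow. Aif1, Fcgr1 and Mpeg1, among the 11, were above background on all 3 Rpt3-/- arrays but on only 1, 1 and 2 Rpt3+/+ arrays. They thus met the filter through the group where they were higher. The summed linear intensity of the macrophage markers was between 8480 and 12200 on the Rpt3-/- arrays and between 3600 and 4000 on the Rpt3+/+ arrays. Ctss differed by 2.68 and C1qa by 2.13, the largest of the list, whereas Mrc1 (0.19), Laptm5 (0.11), Lgals3 (0.08) and Cd163 (-0.04) were not called. The defining markers Adgre1, Itgam and Ptprc were too dim to be tested, and Cd68 and Csf1r had no named probe here. Fibroblast markers were higher for 6 of 12 and lower for none, with sums between 34700 and 35600 against 22000 and 26100, and adipocyte markers were higher for 3 of 5 and lower for 1, with sums between 5460 and 6100 against 4270 and 4970. Endothelial (9 tested), nerve (6 tested) and erythroid (2 tested) markers held no called gene by limma, with 0 to 1 at an unadjusted p under 0.05 in each list and at most 1 by the methods' test without adjustment. The summed intensity of the skeletal muscle markers was between 225000 and 235000 on the Rpt3-/- arrays and between 254000 and 266000 on the Rpt3+/+ arrays. That sum leaves out Acta1, which had no value on Rpt3+/+ replicate 3. The brightest of the other muscle markers shared the same few top values after quantile normalization, which may compress their differences. All of the members are expressed in many cell types. In whole muscle, a change in the cells present and a change in mRNA per cell cannot be told apart, and the part of other cells in the differences of Gabarap, Map1lc3a and Sqstm1 was not tested.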

How the data were processed

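Muscle RNA in 3 Rpt3-/- and 3 Rpt3+/+ samples was measured on 1 array each. The deposited scanner reports hold an intensity, a local background and a flag for each spot, produced with CodeLink Expression Analysis 5.0.0.31312, according to the submitters' processing notes, and not normalized between arrays. The authors' value table holds linear intensities. Every column matched 1 array's report, and all had a median of 89, as after background subtraction and quantile normalization. Spots flagged as masked, contaminated or excluded by the user were left out. Of 34967 transcript probes, 21615 had 1 gene symbol in the platform annotation, 536 received a name through a RefSeq accession (Optn among them), and 681 with several symbols stayed unnamed. Each value is read from 1 probe and can be affected by its sequence, which was not examined.

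With limma 3.58.1 in R 4.3.3, background was corrected by normexp (offset 50) and arrays were quantile normalized. Log2 values were fitted by lmFit and eBayes over 14731 genes with Benjamini-Hochberg adjustment, and genes were called at an adjusted p under 0.05. Where a gene had several probes, the brightest was used. Named genes were all members, in each list up to 4 called genes with the largest difference and any called gene of the opposite direction, and the 3 genes most like the member with the largest difference. Plekhm1, Nufip1, Calcoco1, Fundc1 and the genes given as not called were named after their values were seen. The members and lists were chosen with earlier results of these data known. Alternatives were other background corrections, scalings, filters and variance models, the authors' table, the methods' unpaired test, omission of each array in turn and a block for replicate number. The ratios between members were added after seeing the data. Promoter letters were counted with Python 3.11.15.

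The steps were tested on simulated data made for the Rpt3-/- against Rpt3+/+ comparison with 14731 genes. Among 50 genes given a log2 rise of 1, 44 were called, and among 50 given a fall of 1, 39, with median estimates of 0.82 and -0.68. Of 50 genes raised 1.5-fold 13 were recovered, of 50 lowered 1.5-fold 9, and 10 of 14531 unchanged genes were called. The simulation raised and lowered equal numbers of genes, far fewer than were called in the measured data, with independent noise. That noise was taken from values already processed, in which the offset shrinks the spread of dim genes, and was then processed again. The simulated spread of dim genes was thus likely too small. A broad or one-sided shift was not simulated, so that these rates may not hold for the measured data. The number of arrays limits the precision.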

Additional observations from a re-analysis of the deposited data

How the results depend on the processing

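The count of members called higher was 3 as reported, 6 with median centring, 1 with centring on Actb, 6 with array weights, 1 with the methods' test after adjustment, and between 1 and 5 with each array left out (5 without Rpt3+/+ replicate 2 and 1 without Rpt3+/+ replicate 3). The count called lower was 0, rose to 1 with centring on Actb and stayed at 0 with each array left out. Of the other autophagy genes 10 were higher as reported, 18 with median centring, 0 with centring on Actb, 19 with array weights, 5 with the methods' test after adjustment, and between 7 and 16 with each array left out (16 without Rpt3+/+ replicate 2). The count lower was 6 as reported, 40 with centring on Actb, 13 with array weights, 0 with the methods' test after adjustment, and between 2 and 11 with each array left out (3 without Rpt3-/- replicate 1, 11 without Rpt3+/+ replicate 1 and 2 without Rpt3+/+ replicate 3). Over all tested genes 1870 higher and 967 lower became 328 and 10332 with centring on Actb and 2556 and 601 with median centring. They became 3004 and 2357 with array weights and 940 and 427 with the methods' test after adjustment. With each array left out between 1086 and 2318 were higher and between 390 and 1453 lower. Beside the 5 members without Rpt3+/+ replicate 2, 15.8% of all tested genes were higher, and beside the 1 without Rpt3+/+ replicate 3, 7.55%. Gabarap kept its call in all 18 alternatives and Map1lc3a in 14. Sqstm1 kept its call in 12, and its adjusted p from limma ranged from 0.00028 to 0.35 over the 18. Tax1bp1 passed with median centring (0.66, adjusted p = 0.00955), array weights (0.39, adjusted p = 0.0205) and without Rpt3+/+ replicate 2 (0.61, adjusted p = 0.0207), all from limma. Without Rpt3+/+ replicate 1 Tax1bp1 was at 0.29 and Nbr1 at 0.20. Nbr1 passed with median centring (0.57), Gabarapl2 with median centring (0.52) and array weights (0.28), and Gabarapl1 with array weights (0.48) and without Rpt3+/+ replicate 2 (0.56). The sign changed for Map1lc3b with median centring (0.09), for Bnip3 with median centring (0.28), the authors' table (0.00) and without Rpt3-/- replicate 3 (0.03), Rpt3+/+ replicate 1 (0.10) or Rpt3+/+ replicate 3 (0.01; range -0.16 to 0.10 with each array left out), and with centring on Actb for Gabarapl1 (-0.32), Gabarapl2 (-0.25), Nbr1 (-0.20), Tax1bp1 (-0.11), Wipi2 (-0.05), Atg7 (-0.13), Csnk2a2 (-0.09), Nufip1 (-0.19), Calcoco1 (-0.29) and Mrpl13 (-0.09). The cause was not tested. Gabarapl1 has no value where a probe had to be above background on all 6 arrays. It was above background on only 1 of the 3 Rpt3+/+ arrays.

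Replicate numbers 1 to 3 are shared by the groups, but nothing ties them to litters or days, and deviations of same-numbered arrays from their group means correlated at 0.126, -0.438 and 0.0987, so that only the first pair correlated best with its own number. With the replicate number as a block 3 members were higher and 0 lower, and 9 other autophagy genes were higher and 7 lower.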

Other observations

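A further probe, annotated to both Fmnl1 and Gabarapl1 and therefore left unnamed, was above background on all 6 arrays. It read 8.74, 8.52 and 8.34 on the log2 scale in the Rpt3-/- mice, against 8.98, 8.98 and 8.90 in the Rpt3+/+ mice, a difference of -0.42 without overlap, which was not tested. The named Gabarapl1 probe differed by 0.42 in the other direction. Which of the transcripts this probe reads was not examined.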
